A study of Mus musculus with 4 samples.

Results

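The genes described here encode the enzymes, regulators and carriers of glycolysis and of the pentose phosphate pathway. They were measured in mouse inguinal fat, a white depot under the skin. A list of 34 genes was matched by Ensembl identifier to the 13677 genes with a value, and 33 had one. The exception was Aldoc, an aldolase gene, which was not analysed here. RNA sequencing libraries came from 2 samples labelled FLCNKO and 2 samples labelled WT. FLCNKO stands for a knockout of Flcn in fat and WT for wildtype. Flcn encodes folliculin, a tumour suppressor protein. All 4 libraries are inguinal fat with no treatment named. The labels do not name the promoter that drives the deletion, the deleted part of the gene, or the age, sex and strain of the mice. The labels do not say that each library is a separate animal, so the p-values cover the spread among these 4 libraries, which may be technical. The series asks how folliculin acts through mTOR signalling on browning, in which white fat takes on features of brown fat.

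Glycolysis turns glucose into pyruvate in the cytosol, and pyruvate is either oxidised in mitochondria or reduced to lactate and exported. The pentose phosphate pathway branches off after glucose is phosphorylated. Its oxidative arm yields NADPH, and its non-oxidative arm returns sugar phosphates to glycolysis. In fat cells, glycolysis also supplies the glycerol backbone of triglycerides, and NADPH is used to build fatty acids. Brown and beige fat cells take up much glucose when they are active.

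The deposited values are on a log2 scale and were nearly equal in distribution between libraries, with medians from 10.7636 to 10.7645. Sequencing depth is unknown, so no counting interval can be given. Whether values are divided by transcript length is not stated, so levels are compared between libraries and not between genes. Flcn itself, as a gene-level value, was 12.35 and 12.12 in the FLCNKO-labelled libraries, against 12.36 and 12.21 in the WT libraries. The groups overlapped for Flcn, which differed by -0.05 ± 0.13 on the log2 scale (SE; adjusted p = 0.852, limma). This value does not check the labels, because the deleted part is not given and the tissue holds cells other than fat cells. Defining fat cell genes were abundant in every library, with medians of the white adipocyte list of 16.49 and 17.26 in FLCNKO and of 16.86 and 16.98 in WT.

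Transcripts of the pathway were more often higher than lower in the FLCNKO-labelled libraries. Of the 33 genes, 26 had a positive and 7 a negative log2 fold change, where 50.4% of all genes had a positive one. The median was 0.31, against 0.0046 over all 13677 genes. The rises that passed the test were those of Ldhb, Pfkl, Pgam1 and Aldoa, between 2.05-fold and 2.82-fold. A fold change here is the FLCNKO mean minus the WT mean on the log2 scale, tested with limma and adjusted over all genes at a threshold of 0.05. These 4 genes are 12.1% of the members, and 0.98% of all genes were called higher. No member was called lower (limma, 0 members, with 1 lower at an unadjusted p under 0.05), and over all genes 0.614% were called lower. At an unadjusted p under 0.05, 15 members were higher, which is 45.5% of them, against 12.1% of all genes. On the lower side, Pfkfb4 alone met that p, against 10.3% of all genes. Both FLCNKO values lay above both WT values in 23 members, or 69.7%, against 29.2% of all genes. They lay below both in 3 members, or 9.09%, against 25.4% of all genes. A further 9 members were higher with an adjusted p between 0.05 and 0.1.

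The 4 calls rest on all 4 libraries and on the variance model. A fit with 1 library left out keeps only 1 library in a group, so its effect sizes are given here. In such fits the median log2 fold change of the members was 0.30 to 0.41. Without the trend of variance on mean expression, limma called 0 members and 0 of all genes in either direction. In that fit 13 members were higher at an unadjusted p under 0.05, against 11% of all genes.

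**Figure D1:**
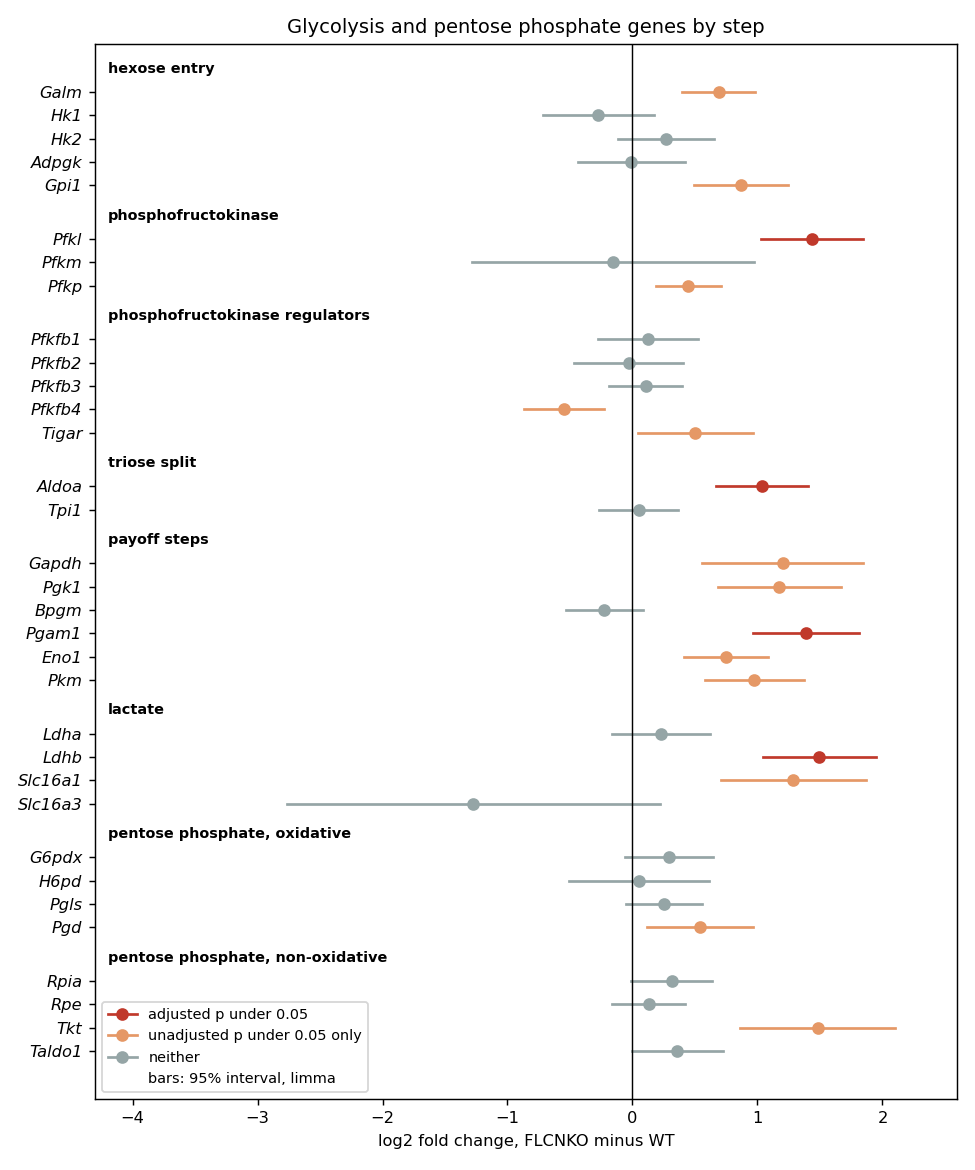
Log2 fold change of each measured gene, FLCNKO minus WT, ordered by step of the pathway, with 95% intervals from limma as bars. The 4 genes past the adjusted threshold, Pfkl, Aldoa, Pgam1 and Ldhb, lie between 1.04 and 1.49, and Slc16a3 has the lowest value at -1.27.

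**Figure D2:**
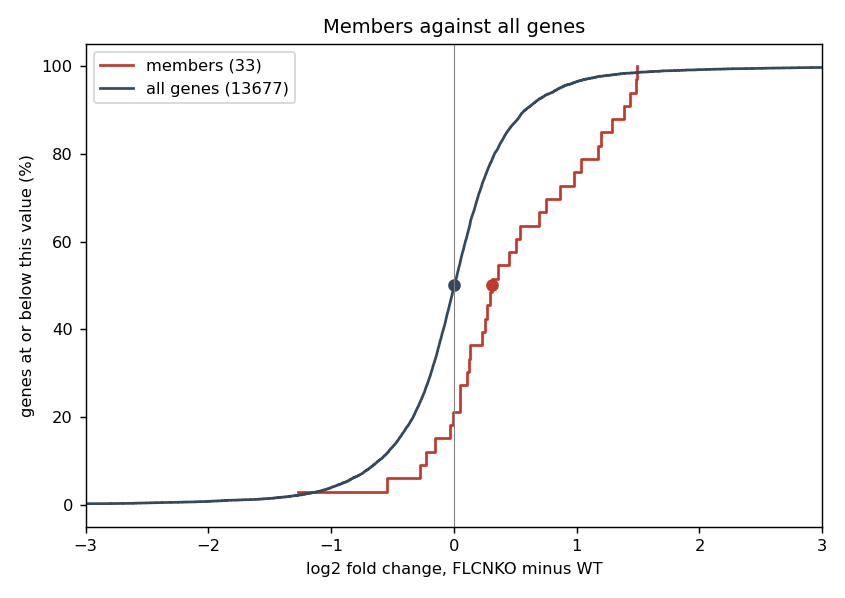
Cumulative share of genes, in percent, at or below each log2 fold change, FLCNKO minus WT, for the 33 pathway genes and for all 13677 genes; dots mark the medians of 0.31 and 0.0046. The x axis stops at -3 and 3. The curve of the pathway genes lies to the right of that of all genes between -1 and 1.

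The 5 members with the largest log2 fold changes were Ldhb (1.49), Tkt (1.48), Pfkl (1.44), Pgam1 (1.39) and Slc16a1 (1.29). Their promoters are shown because these genes come from different arms of the pathway and were higher together. Each has 1 start in the RefSeq table for build GRCm38.p6, and the 250 bases before it are printed 5′ to 3′. Capitals mark any match on either strand to the E-box CACGTG, to its part ACGTG (also the core of the hypoxia response element), to TNAAGGTCA, a site of oestrogen-related receptors, or to the GC box GGGCGG.
Ldhb: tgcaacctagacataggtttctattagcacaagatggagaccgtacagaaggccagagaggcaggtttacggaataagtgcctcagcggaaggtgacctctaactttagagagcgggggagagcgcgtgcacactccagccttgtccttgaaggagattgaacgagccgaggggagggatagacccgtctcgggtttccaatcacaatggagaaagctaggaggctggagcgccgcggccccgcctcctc
Tkt: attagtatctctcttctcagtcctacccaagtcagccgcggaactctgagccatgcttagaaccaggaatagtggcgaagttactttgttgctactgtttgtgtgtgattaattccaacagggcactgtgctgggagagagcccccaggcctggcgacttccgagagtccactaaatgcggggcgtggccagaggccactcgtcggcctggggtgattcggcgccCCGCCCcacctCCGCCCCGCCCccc
Pfkl: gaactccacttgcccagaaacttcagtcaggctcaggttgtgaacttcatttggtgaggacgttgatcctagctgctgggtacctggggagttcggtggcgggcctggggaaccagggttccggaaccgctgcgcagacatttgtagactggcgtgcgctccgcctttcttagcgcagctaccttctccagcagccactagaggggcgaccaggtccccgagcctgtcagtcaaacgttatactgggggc
Pgam1: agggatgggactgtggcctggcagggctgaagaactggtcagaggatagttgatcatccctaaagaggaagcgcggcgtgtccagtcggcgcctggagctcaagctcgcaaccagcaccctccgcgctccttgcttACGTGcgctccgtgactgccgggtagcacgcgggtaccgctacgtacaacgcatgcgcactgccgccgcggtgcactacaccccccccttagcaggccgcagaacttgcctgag
Slc16a1: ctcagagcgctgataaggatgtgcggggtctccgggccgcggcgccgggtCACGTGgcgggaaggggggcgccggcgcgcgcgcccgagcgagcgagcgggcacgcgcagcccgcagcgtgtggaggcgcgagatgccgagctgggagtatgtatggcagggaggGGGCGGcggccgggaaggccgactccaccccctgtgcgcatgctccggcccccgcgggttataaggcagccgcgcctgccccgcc
The windows are chr6:142507958-142508207 on the minus strand for Ldhb, chr14:30548881-30549130 on the plus strand for Tkt, chr10:78009808-78010057 on the minus strand for Pfkl, chr19:41911621-41911870 on the plus strand for Pgam1 and chr3:104638414-104638663 on the plus strand for Slc16a1. Slc16a1 holds an E-box and a GC box, Tkt holds 3 GC boxes, and Pgam1 holds 1 ACGTG. None of the 4 motifs is in these windows of Ldhb and Pfkl. The table held 49 windows for 32 of the 33 members with a value, and genes with several starts count more than once. The E-box was in 5 of the 49 (10.2%), against 6.02% of all 32851 windows. ACGTG was in 16 (32.7%, against 16.6%), GGGCGG in 28 (57.1%, against 32.7%), and TNAAGGTCA in 0 (against 1.14%). The 32851 windows were not matched to those of the members in base composition or expression, and the shares were not tested. A match describes letters only. Galm had no entry.

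At the entry of hexose, Galm, the mutarotase that interconverts the anomers of free galactose and glucose, was 12.67 and 12.83 in FLCNKO and 12.02 and 12.10 in WT. Gpi1, which converts glucose phosphate to fructose phosphate, was 15.47 and 15.16 in FLCNKO and 14.39 and 14.52 in WT. For both genes the FLCNKO values lay above the WT values without overlap. The log2 fold changes, 0.69 ± 0.11 for Galm and 0.87 ± 0.15 for Gpi1 (SE; limma, adjusted p = 0.0599 and 0.062), did not pass. The hexokinases, which trap glucose in the cell by phosphorylation, showed smaller differences. Hk2, the insulin-regulated form in muscle and fat, was 13.56 and 13.67 in FLCNKO and 13.18 and 13.52 in WT (0.27 ± 0.15, adjusted p = 0.356). Hk1, the form found in most tissues, was 10.82 and 11.21 in FLCNKO and 11.38 and 11.20 in WT, and its groups overlapped (-0.27 ± 0.17, adjusted p = 0.42). Adpgk, which phosphorylates glucose with ADP, had a log2 fold change of -0.01 with a 95% interval from -0.44 to 0.42.

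Phosphofructokinase commits sugar to glycolysis and is the main point of control. Of its 3 subunit genes, the liver form Pfkl rose. Pfkl was 14.96 and 14.60 in the FLCNKO-labelled libraries, against 13.26 and 13.44 in WT. The groups did not overlap, with a gap of 1.17 between the nearest libraries. The group means were 14.78 ± 0.25 in FLCNKO and 13.35 ± 0.12 in WT (SD, n = 2 each), a 2.70-fold rise with a 95% interval from 2.04-fold to 3.59-fold (limma adjusted p = 0.0404). Without 1 library the fold for Pfkl lay between 2.39 and 3.06. The platelet form Pfkp was 12.78 and 12.82 in FLCNKO and 12.36 and 12.34 in WT. Its replicates were close together and the groups apart, by 0.45 ± 0.10 (SE, adjusted p = 0.0901). The muscle form Pfkm was 12.42 and 11.54 in FLCNKO and 12.66 and 11.61 in WT. In both groups replicate 1 of Pfkm was higher by more than the difference between groups (-0.16 ± 0.44, adjusted p = 0.867).

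The Pfkfb enzymes make and break down a fructose bisphosphate that activates phosphofructokinase, and Tigar breaks it down. No member of this group passed the test (limma, 0 of 5). Of the 5, 1 was higher and 1 lower at an unadjusted p under 0.05, against 12.1% and 10.3% of all genes. Pfkfb4 was 10.45 and 10.34 in FLCNKO and 10.93 and 10.97 in WT. It was lower in both FLCNKO libraries by 0.55 ± 0.12 on the log2 scale (SE, adjusted p = 0.091). Tigar was 10.48 and 10.85 in FLCNKO and 10.25 and 10.07 in WT (0.50 ± 0.18, adjusted p = 0.192). Pfkfb3, the form induced by growth signals and low oxygen, had a log2 fold change of 0.11 with a 95% interval from -0.19 to 0.40. Those of Pfkfb1, the form known from liver and muscle, and Pfkfb2, known from heart, were 0.12 (-0.28 to 0.53) and -0.03 (-0.47 to 0.41), with groups that overlapped.

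Below phosphofructokinase, the enzymes from aldolase to pyruvate kinase were higher in the FLCNKO-labelled libraries, with 2 exceptions. Aldoa, the aldolase that splits the sugar into triose phosphates, was 17.64 and 17.61 in FLCNKO and 16.69 and 16.49 in WT. The difference between groups was several times the spread within either group. Means were 17.63 ± 0.02 in FLCNKO and 16.59 ± 0.14 in WT (SD, n = 2 each), a 2.05-fold rise with a 95% interval from 1.59-fold to 2.65-fold (limma adjusted p = 0.0484). Pgam1, the phosphoglycerate mutase of most tissues, was 11.54 and 11.17 in FLCNKO and 9.99 and 9.94 in WT. The groups were 1.18 apart at their nearest libraries. The rise was 2.62-fold, with a 95% interval from 1.95-fold to 3.52-fold (adjusted p = 0.0422). With 1 library left out, the fold lay between 1.91 and 2.20 for Aldoa and between 2.30 and 2.98 for Pgam1.

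Gapdh, Pgk1, Eno1 and Pkm, the other enzymes of the energy-yielding steps, did not pass but had groups apart in the same direction. Gapdh, the triose phosphate dehydrogenase that is often used as a reference transcript, was 9.20 and 8.75 in FLCNKO and 7.81 and 7.74 in WT (1.20 ± 0.25, SE; limma adjusted p = 0.0819). Pgk1, which makes ATP from bisphosphoglycerate, was 10.87 and 10.46 in FLCNKO and 9.40 and 9.58 in WT (1.18 ± 0.19, adjusted p = 0.0588). Replicate 1 was the higher of the FLCNKO libraries for both genes. Eno1, the enolase of most tissues, was 14.70 and 14.43 in FLCNKO and 13.79 and 13.84 in WT (0.75 ± 0.13, adjusted p = 0.0635). Pkm, the pyruvate kinase of most tissues other than liver, was 15.91 and 15.61 in FLCNKO and 14.88 and 14.69 in WT (0.97 ± 0.15, adjusted p = 0.0558). The exceptions were Tpi1 and Bpgm. Tpi1, which interconverts the triose phosphates, was 15.05 and 15.19 in FLCNKO and 14.99 and 15.14 in WT, with a log2 fold change of 0.05 and a 95% interval from -0.26 to 0.36. Bpgm, which makes the bisphosphoglycerate that regulates haemoglobin, was 10.76 and 10.88 in FLCNKO and 11.06 and 11.03 in WT (-0.23 ± 0.12, adjusted p = 0.339).

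Several of these genes have near-identical copies, mostly processed pseudogenes, so their values are uncertain. The share of 31-base stretches of a gene's protein-coding transcripts that also occur in transcripts of other genes was 68.3% for Pgk1, 62.6% for Gapdh, 53.5% for Eno1 and 42.1% for Pgam1. It was 36.6% for Gpi1, 34.8% for Pkm, 33.0% for Ldhb and 22.0% for Aldoa. Pfkfb2 (27.0%), Ldha (22.3%) and Taldo1 (22.2%) were also above 20%, and these were not higher at an unadjusted p under 0.05 (limma). Gapdh shared stretches with 321 annotated pseudogenes and Ldhb with 1. How the authors treated reads that fit several places is not given in the sources used here. Gapdh, at 7.74 to 9.20, lay under the library medians of 10.76 in every library. The WT values of Pgk1 (9.40 and 9.58) and of the called Pgam1 (9.99 and 9.94) lay under them too. The other members above 20% lay over the medians in every library. Whether reads of these genes were left out was not tested. Of the 11 members with more than 20% shared, 8 were higher at an unadjusted p under 0.05, among them the called Ldhb, Pgam1 and Aldoa. Among the 15 members with at most 1% shared, 5 were higher at that p, against 12.1% of all genes. Of these 15, 1 was called higher, Pfkl, against 0.98% of all genes, and their median log2 fold change was 0.25. Pfkl shared 0.821%, and Tkt and Slc16a1 shared none.

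At the lactate step Ldhb rose, and Ldha did not pass the test. Ldhb, the heart form of lactate dehydrogenase, was 14.04 and 13.57 in the FLCNKO-labelled libraries, against 12.31 and 12.31 in WT. Both WT libraries were alike and both FLCNKO libraries stood above them, by 1.26 at the nearest. Means were 13.80 ± 0.33 in FLCNKO and 12.31 ± 0.01 in WT (SD, n = 2 each), a 2.82-fold rise with a 95% interval from 2.06-fold to 3.85-fold (limma adjusted p = 0.0419). With 1 library left out, the fold for Ldhb lay between 2.39 and 3.31. Ldha, the muscle form, was 16.74 and 16.57 in FLCNKO and 16.30 and 16.55 in WT. FLCNKO replicate 2 and WT replicate 2 were nearly level, and Ldha did not pass (0.23 ± 0.15, SE; adjusted p = 0.443).

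The 2 lactate carriers had log2 fold changes of opposite sign, and neither passed the test. Slc16a1, a monocarboxylate carrier of most tissues, was 13.45 and 12.83 in FLCNKO and 11.76 and 11.95 in WT. Both FLCNKO libraries were above both WT libraries, replicate 1 most (1.29 ± 0.23, SE; limma adjusted p = 0.064). Slc16a3, the carrier known for lactate export from glycolytic cells, was 6.06 and 6.13 in FLCNKO and 8.06 and 6.67 in WT. These are low values, and WT replicate 1 stood apart from WT replicate 2 (-1.27 ± 0.58, adjusted p = 0.278). Without WT replicate 1 the log2 fold change of Slc16a3 was -0.58.

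**Figure D3:**
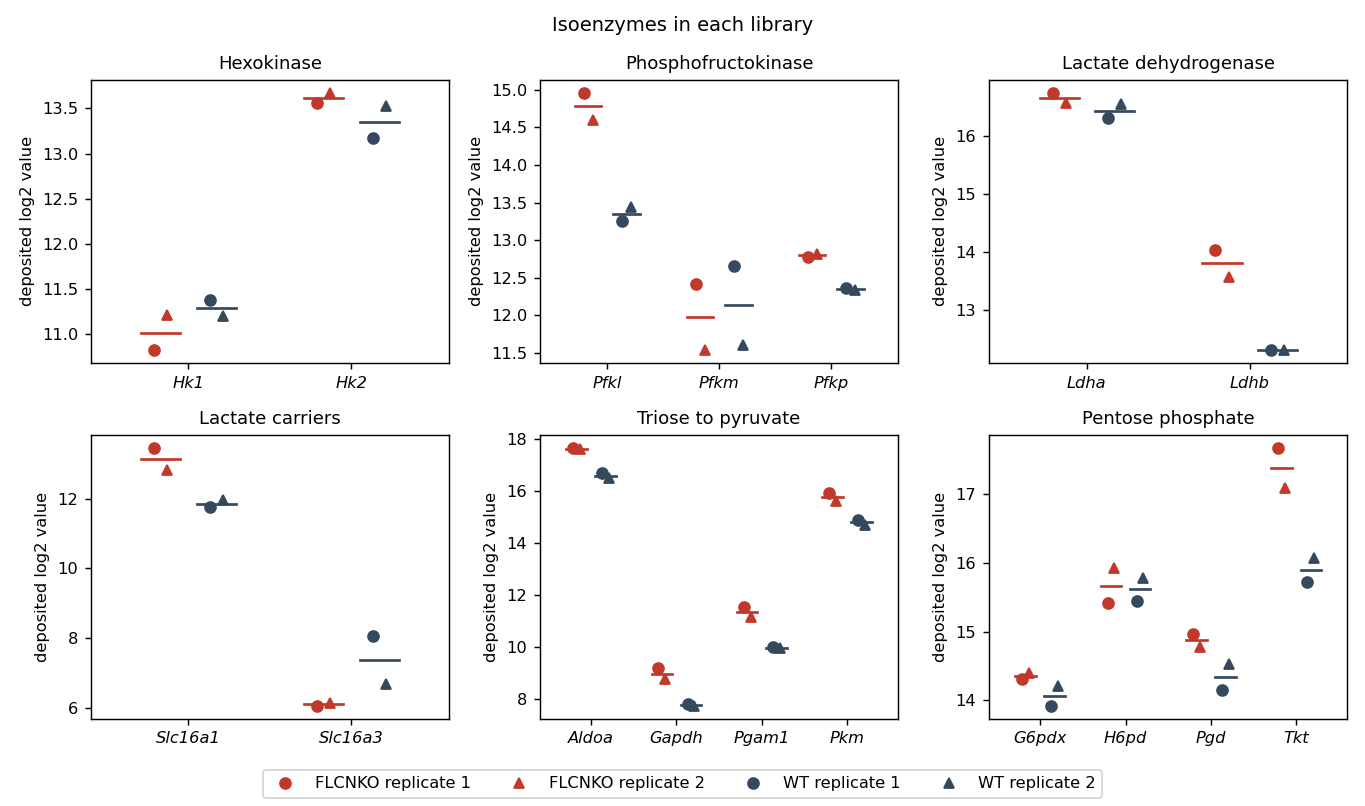
Deposited log2 value (y axis) of selected genes in each library, with FLCNKO left of WT, circles for replicate 1, triangles for replicate 2 and lines for group means (n = 2). The y axes differ between panels and do not start at 0. Pfkl and Ldhb are apart between groups, at 14.60 or more against 13.44 or less and 13.57 or more against 12.31, while Pfkm and Ldha lie closer together.

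In the pentose phosphate pathway all 8 genes had positive log2 fold changes, where 50.4% of all genes had one. Limma called 0 of the 8, where 0.98% of all genes were called higher. Among the 8, 2 were higher at an unadjusted p under 0.05, against 12.1% of all genes. Tkt, the transketolase of the non-oxidative arm, stood out with 17.67 and 17.09 in FLCNKO and 15.73 and 16.07 in WT. The groups of Tkt were 1.02 apart at the nearest libraries. The means of Tkt were 17.38 ± 0.41 in FLCNKO and 15.90 ± 0.24 in WT (SD, n = 2 each), 2.80-fold higher in FLCNKO with a 95% interval from 1.82-fold to 4.30-fold. It did not pass the test (adjusted p = 0.0591). The other genes of that arm differed less. Taldo1, the transaldolase, was 15.68 and 15.41 in FLCNKO and 15.13 and 15.24 in WT (0.36 ± 0.14, SE; adjusted p = 0.229). Rpia and Rpe, which interconvert pentose phosphates, had log2 fold changes of 0.31 ± 0.13 and 0.13 ± 0.11 (adjusted p = 0.234 and 0.566).

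In the oxidative arm, Pgd, the phosphogluconate dehydrogenase that makes NADPH, was 14.97 and 14.78 in FLCNKO and 14.15 and 14.53 in WT (0.54 ± 0.17, SE; limma adjusted p = 0.152). G6pdx, the entry enzyme, was 14.31 and 14.40 in FLCNKO and 13.92 and 14.21 in WT (0.29 ± 0.14, adjusted p = 0.288). For both genes WT replicate 2 was the WT library nearest to FLCNKO. Pgls, the lactonase between them, had a log2 fold change of 0.25 ± 0.12 (adjusted p = 0.288). H6pd, which carries out the oxidative steps in the endoplasmic reticulum, was 15.42 and 15.92 in FLCNKO and 15.45 and 15.78 in WT. Replicate 2 of H6pd was the higher in both groups, and its groups overlapped (0.05 ± 0.22, adjusted p = 0.912).

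Genes of 1 step were also compared within each library, as the log2 value of the one minus that of the other, for 8 pairs. Not all are isoenzymes: Slc16a1 and Slc16a3 are carriers, and Tigar and Pfkfb3 are different regulators of phosphofructokinase. With 2 libraries against 2, the smallest p of a two-sided exact permutation test is 0.333, so no pair could pass. Pfkl minus Pfkm was 2.54 and 3.06 in FLCNKO and 0.60 and 1.82 in WT, a change of 1.59 (exact permutation p = 0.333, adjusted over 8 pairs 0.381). Pfkl minus Pfkp was 2.18 and 1.78 in FLCNKO and 0.89 and 1.09 in WT, a change of 0.99. In both, the FLCNKO libraries were higher without overlap. Ldhb minus Ldha was -2.70 and -3.00 in FLCNKO and -4.00 and -4.24 in WT, a change of 1.26 (exact permutation p = 0.333, adjusted 0.381). Slc16a3 minus Slc16a1 was -7.40 and -6.71 in FLCNKO and -3.70 and -5.28 in WT, a change of -2.56, with the WT libraries far from each other. Hk2 minus Hk1 changed by 0.54, Tigar minus Pfkfb3 by 0.40 and H6pd minus G6pdx by -0.24, again without overlap, and Pfkp minus Pfkm by 0.60 with overlap (exact permutation p = 0.667). Several of these changes rest on single libraries. Without WT replicate 1, Pfkl minus Pfkm changed by 0.98, Hk2 minus Hk1 by 0.28 and Pfkp minus Pfkm by 0.09. Without WT replicate 2, Pfkp minus Pfkm changed by 1.12. Without FLCNKO replicate 1, H6pd minus G6pdx changed by -0.03 and Pfkp minus Pfkm by 1.07. Without FLCNKO replicate 2, H6pd minus G6pdx changed by -0.45, Tigar minus Pfkfb3 by 0.25 and Pfkp minus Pfkm by 0.14.

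Markers of skeletal muscle, a tissue rich in glycolytic enzymes, differed widely between libraries. Of 26 muscle markers 25 had a value, with list medians of 11.54 and 5.42 in FLCNKO and 12.44 and 9.49 in WT. Their summed linear level, divided by 1000, was 106.2 and 17.8 in FLCNKO and 216.2 and 31.3 in WT. In FLCNKO replicate 2, Ckmt2, Myh2 and Myoz1 were at 2.37, the lowest value of that library. Limma called 0 of the 25 (0 at an unadjusted p under 0.05, against 12.1% higher and 10.3% lower of all genes). Pgam2, Eno3 and Pfkm had the same order of the 4 libraries as the marker median. Pgam2, the muscle phosphoglycerate mutase, was 9.32 and 4.53 in FLCNKO and 10.37 and 6.77 in WT. Eno3, the muscle enolase, was 11.70 and 9.85 in FLCNKO and 12.47 and 10.66 in WT. For Pgam2, Eno3 and Pfkm, WT replicate 1 was highest and FLCNKO replicate 2 lowest. The part of muscle in the pathway results was not tested.

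**Figure D4:**
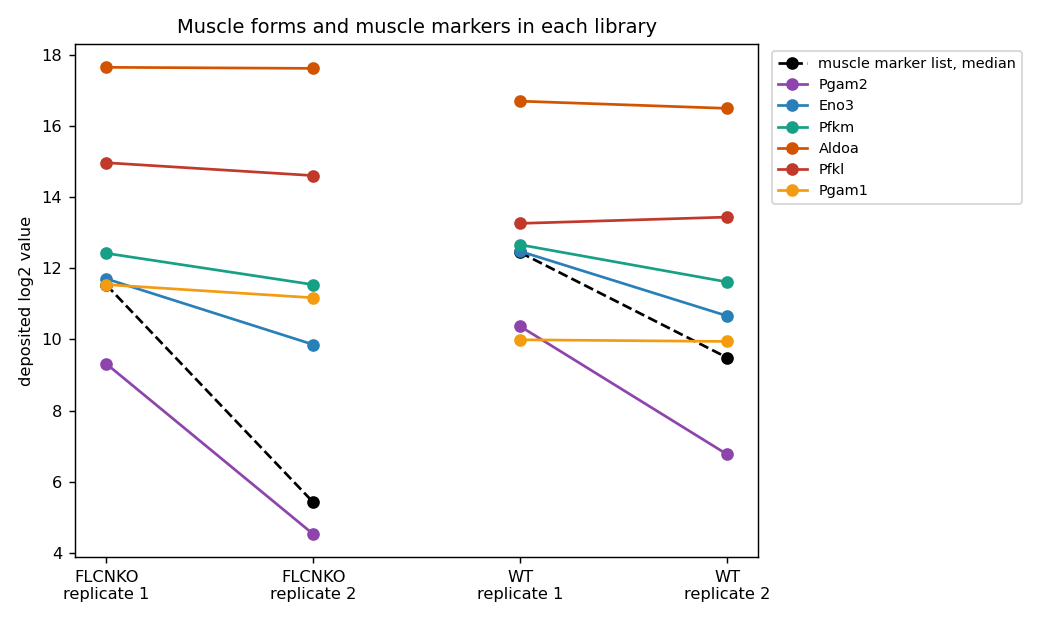
Deposited log2 value (y axis, not starting at 0) in each library (x axis) of muscle forms Pgam2, Eno3 and Pfkm, of Aldoa, Pfkl and Pgam1, and of the median of 25 muscle markers (dashed). Lines join the libraries of 1 group. The muscle marker median spans 5.42 to 12.44 and Pgam2 4.53 to 10.37, while Aldoa stays between 16.49 and 17.64.

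Other cell type markers differed between the groups as well, given here as summed linear levels divided by 1000. Such a sum is weighted towards the most abundant genes of a list. Brown and beige adipocyte markers summed to 195.2 and 77.6 in FLCNKO and to 18.4 and 11.3 in WT. Of this list 7 of 7 were measured and 2 called higher (Cox8b and Ppargc1a). Without overlap 5 were higher, against 29.2% of all genes. Ucp1 and Dio2 overlapped between groups, with log2 fold changes of 2.92 ± 1.54 and -0.08 ± 0.97 (SE; limma adjusted p = 0.336 and 0.972). Macrophage markers summed to 124.3 and 101.4 in FLCNKO and to 216.9 and 192.6 in WT, with 11 of 11 measured and 2 called lower. Fibroblast markers summed to 582.6 and 558.4 in FLCNKO and to 1195 and 1094 in WT, with 8 of 8 measured and 3 called lower. By these sums the brown and beige list was higher, and the macrophage and fibroblast lists lower, in both FLCNKO libraries. Over all genes, limma called 0.98% higher and 0.614% lower. White adipocyte markers had close sums, at 2265 and 2253 in FLCNKO and 2305 and 2277 in WT. The most abundant of them was Fabp4, at 20.57 and 20.23 in FLCNKO and 20.27 and 20.23 in WT. Of the 8 white markers, 7 had a negative and 1 a positive log2 fold change, where 50.4% of all genes had a positive one. Limma called 0 of the 8. Adipoq and Retn were lower at an unadjusted p under 0.05, against 10.3% of all genes. Blood markers, of which 3 of 6 had a value, summed to 3.69 and 11.7 in FLCNKO and to 16.1 and 13.3 in WT. None of these lists had a member at the lowest value of a library. On the same scale, the 25 members of glycolysis and lactate transport summed to 643.3 and 592.4 in FLCNKO and to 395.3 and 399.4 in WT. The 8 of the pentose phosphate pathway summed to 371.0 and 308.1 in FLCNKO and to 179.9 and 218.7 in WT. Among these 8, Tkt had the highest value in every library and a log2 fold change of 1.48. Those of the others lay between 0.05 and 0.54. The part of these cell types in the pathway results was not tested, and in tissue RNA fewer cells of a type and less RNA per cell cannot be told apart.

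Beside the members, 17 of 27 further isoenzymes and partners of the pathway had a value. Limma called 0 of the 17 higher and 1 lower, against 0.98% and 0.614% of all genes. The one that fell was Emb, embigin, a chaperone of monocarboxylate carriers. Emb was 9.88 and 9.70 in FLCNKO and 11.06 and 10.89 in WT, a difference of -1.19 ± 0.15 on the log2 scale (SE; adjusted p = 0.0437). Bsg, basigin, the chaperone of the same carriers in most tissues, was 14.77 and 14.76 in FLCNKO and 14.74 and 14.75 in WT (0.01 ± 0.10, adjusted p = 0.956). Emb was lower in both FLCNKO libraries than in either WT library, and Bsg was nearly level in all 4. Ldhd, the D-lactate dehydrogenase of mitochondria, was 13.46 and 12.91 in FLCNKO and 11.95 and 12.04 in WT (1.19 ± 0.20, adjusted p = 0.0609). Prps1, which activates ribose phosphate for nucleotide synthesis, was 12.46 and 12.49 in FLCNKO and 13.47 and 13.23 in WT (-0.88 ± 0.13, adjusted p = 0.0509). Ldhd and Prps1 did not pass and were chosen for naming after their values were seen.

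Of the 10 genes at the branch of pyruvate into mitochondria, limma called 0, and the median log2 fold change was 0.65. Among these 10, 6 were higher and 1 lower at an unadjusted p under 0.05, against 12.1% and 10.3% of all genes. None of the genes of this list named here passed, and they were chosen after their values were seen. Pdk4, a kinase that inhibits pyruvate dehydrogenase, was 18.17 and 16.60 in FLCNKO and 15.03 and 13.60 in WT (3.07 ± 0.67, SE; adjusted p = 0.0877). Pdhb, a subunit of the dehydrogenase itself, was 15.54 and 14.83 in FLCNKO and 14.08 and 14.25 in WT (1.02 ± 0.25, adjusted p = 0.104).

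Of 20 transcription factors and hypoxia genes tied to the pathway, 18 had a value and limma called 0, with a median log2 fold change of -0.20. Among the 18, 2 were higher and 8 lower at an unadjusted p under 0.05, against 12.1% and 10.3% of all genes. Hif1a, the oxygen-regulated factor that induces glycolytic genes, was 13.10 and 13.36 in FLCNKO and 12.96 and 13.10 in WT. The lowest FLCNKO and the highest WT library were level for Hif1a (0.20 ± 0.13, SE; adjusted p = 0.45). Mlxipl, the carbohydrate-responsive factor ChREBP, was 14.26 and 13.92 in FLCNKO and 13.27 and 13.55 in WT (0.68 ± 0.17, adjusted p = 0.108). The groups of Mlxipl did not overlap. Egln3, the other gene of the list that was higher at an unadjusted p under 0.05, was 8.78 and 8.63 in FLCNKO and 8.10 and 7.68 in WT. Its log2 fold change was 0.81 ± 0.25 (adjusted p = 0.156, limma), also without overlap. Of the 8 that were lower at an unadjusted p under 0.05, Ndrg1, a gene induced by low oxygen, had the lowest log2 fold change. Ndrg1 was 12.36 and 12.64 in FLCNKO and 13.28 and 13.19 in WT (-0.73 ± 0.14, adjusted p = 0.0672). Myc, a growth factor-responsive transcription factor, was 9.95 and 9.54 in FLCNKO and 10.40 and 10.35 in WT (-0.63 ± 0.18, adjusted p = 0.137). Egln3, Ndrg1 and Myc were chosen after their values were seen. The other 6 were Bnip3, Mlxip, Nfe2l2, Vhl, Arnt and Srebf1, with log2 fold changes from -0.58 to -0.36.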

How the data were processed

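Inguinal fat RNA was sequenced by the submitters in 2 FLCNKO-labelled and 2 WT libraries, with groups and replicate numbers read from the library titles. For each library the authors deposited the log2 values of 13677 genes. The submitters' processing notes name STAR, limma and the mouse build mm9 and give no versions. The counter, the strand setting and the annotation are not given in the sources used. Made linear, the deposited log2 values sum to nearly the same total in each library, and all 4 share a highest value of 21.66. A shift shared by most genes can therefore not be seen, and depth and counts are unknown.

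By Ensembl identifier, 13592 genes had a symbol and 85 had none. The comparison used limma 3.58.1 (R 4.3.3) with group as the only term, a variance trend (2 residual and 3.09 prior degrees of freedom), two-sided tests and Benjamini-Hochberg adjustment over all 13677 genes at 0.05, with no filter on low values. The fit was also run on values simulated from its own variance model with known changes, which does not test that model on these data. The members, lists and tests were chosen with earlier results of these data known. Every member is accounted for. Values in each library are given for members past the threshold, the 3 largest changes each way, their isoenzymes and Gapdh, and for further members. Alternatives were a fit without the trend, robust moderation, centring, repeated quantile normalization, keeping only genes whose mean is 8 or more, array weights, a replicate block, and leaving out each library. Shared sequence was counted as stretches of 31 bases in GENCODE transcripts of build GRCm38, and promoters are from RefSeq. Figures were drawn with matplotlib 3.10.9.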

Additional observations from a re-analysis of the deposited data

How the results depend on the processing

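Centring on the median and repeated quantile normalization changed the call of 0 members, as did array weights. The deposited values were already nearly equal in distribution, so centring and that normalization could change little. Robust moderation and the filter on a mean of at least 8 each called 5 members (Pgk1 or Pkm in addition). Over all genes those 2 settings called 201 and 187 genes higher, against 134, and 143 and 138 lower, against 84. Without the variance trend limma called 0 members and 0 genes in either direction (13 members, 1508 genes higher and 1194 lower at an unadjusted p under 0.05). With any 1 library left out it called 0 to 0 members and 0 to 0 genes, higher and lower (756 to 1733 genes higher and 639 to 1722 lower at an unadjusted p under 0.05), and the median of the members was 0.30 to 0.41. With 1 library in a group, that library is assumed to vary like the others, and fewer residual degrees of freedom remain. Single members near 0 changed sign when 1 library was left out, over ranges from -0.21 to 0.19 for Adpgk, -0.68 to 0.37 for Pfkm, -0.069 to 0.318 for Pfkfb1, -0.24 to 0.18 for Pfkfb2, -0.025 to 0.123 for Tpi1 and -0.20 to 0.31 for H6pd. The 8 pair differences kept their direction without each library. For pairs whose groups did not overlap this was fixed by arithmetic. Pfkp minus Pfkm, the pair with overlap, changed by 0.09 to 1.12 in these fits. Repeated quantile normalization could change the 8 pair differences little. A replicate block leaves each of them unchanged by arithmetic, because both groups hold the same replicate numbers. Replicate numbers are not said to mark a shared animal or batch. Deviations of same-numbered libraries correlated across genes (r = 0.363), and with a replicate block limma called 11 members higher (Tkt, Galm, Gpi1, Pgk1, Eno1, Pkm and Slc16a1 in addition), 401 genes higher and 441 lower. Depth is unknown, so limits on low values such as those of Slc16a3 cannot be given.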
